A study of Mus musculus with 12 samples.

Results

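Potassium channel genes were taken as every gene whose symbol in the probe annotation starts with Kcn followed by letters and a number. The bead array carried 171 such probes for 87 genes, out of 19057 genes that have probes with a single symbol. A probe was tested when its detection p, the file's measure of how often background beads give such a signal, was under 0.05 on at least 4 of the 10 arrays compared here. This left 100 probes and 66 genes, out of 23260 probes and 11585 genes tested in all. By role the 87 genes were 35 voltage-gated pore and modulatory subunits (28 tested), 12 auxiliary subunits (10 tested), 13 inward rectifiers (10 tested) and 14 two-pore leak channels (9 tested). The remaining genes were 11 calcium- or sodium-activated channels and their beta subunits (9 tested) and 2 noncoding RNAs, Kcnq1ot1 and Kcnmb4os1, of which none was tested.

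Male mice of the strain C57Bl/6J, 10 weeks old, gave the RNA, which was taken from both amygdalae with a 1 mm punch, and each of 3 groups had 4 arrays. HC mice stayed in the home cage. FC mice were taken 2 h after fear conditioning, and IMO_FC mice underwent immobilization as well as fear conditioning and were taken at the same time after it. The labels give no mutation or drug for any group. They do not tell whether each array holds RNA of an animal of its own. The p-values thus measure the spread between these samples, which may be technical.

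Potassium channels bring a neuron back to rest after an action potential and set how readily it fires. Voltage-gated Kv channels shape the spike and its frequency, inward rectifiers and two-pore channels hold the resting potential, and calcium-activated channels slow repeated firing. In the amygdala, changes in such currents have been described in projection neurons after fear learning and after stress. G-protein-gated inward rectifiers (GIRK channels) are opened by inhibitory receptors, among them GABA-B receptors and Oprl1, the nociceptin receptor in the title of the series.

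Arrays FC 1 and FC 3 stood apart from the other 10. They detected 11.69% and 15.94% of all probes against 38.97% to 50.7% elsewhere, and 24 and 31 of the 171 potassium channel probes against 74 to 100. Spearman's rho with the other arrays over the tested probes was 0.215 to 0.329, while pairs of the other 10 gave 0.736 to 0.944. Results are therefore those of the 10 arrays, with FC represented by FC 2 and FC 4, and values with all 12 arrays are given for many of the FC differences and plotted for every gene. Among the 10, IMO_FC 1 detected the fewest probes, both of all genes (38.97%) and of potassium channel genes (74). Each gene is represented by its brightest tested probe, and values are normalized log2 intensities, so a difference of 1 is a doubling. For 29 of the 66 genes this probe was detected on 4 to 9 of the 10 arrays, so some of their readings lie at background. Brightness depends on the probe, and levels of different probes were not compared.

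No potassium channel probe passed limma's moderated test at a Benjamini-Hochberg adjusted p under 0.05 in any of the 3 comparisons. The background was the same: 0% of the probes tested were called in FC against HC, in IMO_FC against HC and in IMO_FC against FC, with 10 arrays or with 12. At an unadjusted p under 0.05, 8 of the 100 potassium channel probes stood out between FC and HC, against 3.46% of all probes. Between IMO_FC and HC there were 4, against 3.17% of all probes. IMO_FC and FC gave 6, against 3.5%. Single arrays moved these counts. That of FC and HC was 4 without IMO_FC 2 and 13 without IMO_FC 1. That of IMO_FC and HC was 1 without HC 4 and 7 without IMO_FC 3. The shares over all probes with an array left out were not computed, so these moves may not be particular to potassium channel probes. In a bulk punch, fewer cells that express a channel and less channel RNA per cell cannot be told apart.

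Between FC and HC, 40 of 66 genes had the higher mean in FC, with a median difference of 0.09 on the log2 scale, beside -0.01 over all genes. For IMO_FC against HC, 31 of 66 were higher and the median was -0.05, beside -0.02 over all genes. For IMO_FC against FC, 27 were higher and the median was -0.12, beside -0.01 over all genes. The SD between single arrays of the members' median was 0.0715. This is not a standard error of the differences between groups, and none of these median differences was tested. For single genes, the median SD between arrays was 0.373 in HC and 0.447 in IMO_FC for potassium channel genes, and 0.333 and 0.438 for all genes.

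The intervals show how much could have been missed. The 95% interval of the difference lay wholly within 1 log2 unit of 0 for 32 of the 66 genes in IMO_FC against HC, beside 57.1% of all genes. For FC against HC it did so for 18, and for IMO_FC against FC for 19, beside 40% of all genes in each. For the other genes a 2-fold difference in at least one direction remained inside the interval.

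**Figure D1:**
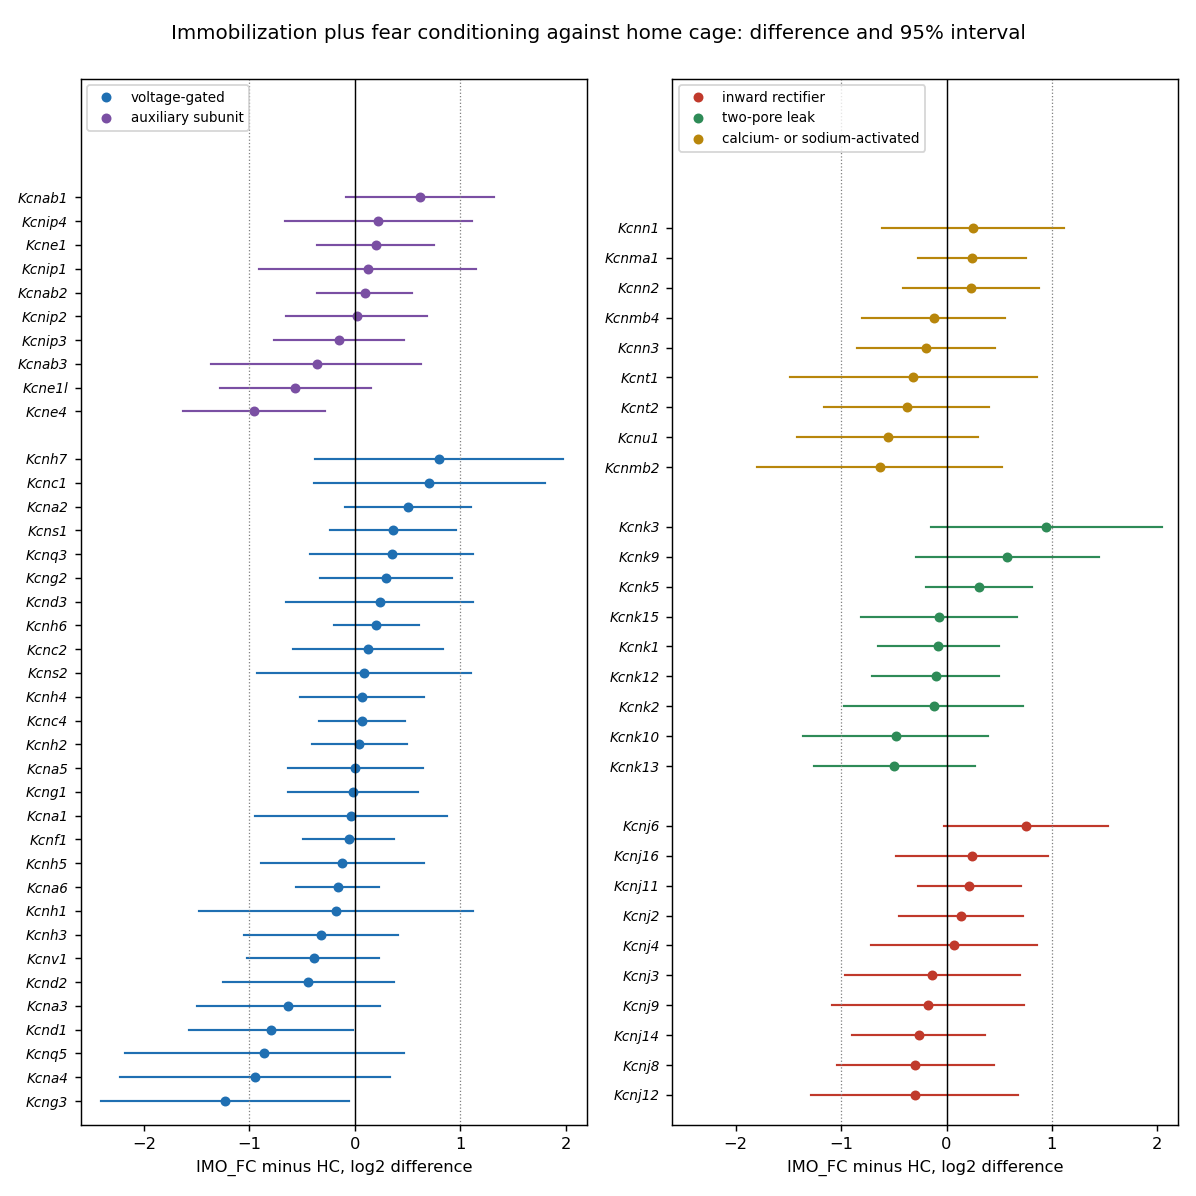
Difference between IMO_FC and HC on the log2 scale (points) with its 95% interval (lines) for the 66 tested potassium channel genes, by role, with dotted lines at -1 and 1 (n = 4 arrays per group). Most intervals cross 0, those of Kcne4, Kcng3 and Kcnd1 lie below it, and none passed the test after adjustment over all probes.

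The G-protein-gated inward rectifiers are the members nearest to the title of the series, since receptors such as Oprl1 act through them. Kcnj6 (GIRK2), the subunit found in most neuronal GIRK channels, had 4 tested probes. On its brightest probe the HC arrays read 7.40, 7.48, 7.65 and 7.51. FC 2 and FC 4 read 8.999 and 7.94, and the IMO_FC arrays read 9.10, 8.57, 7.71 and 7.67. All 6 conditioned arrays thus lay above all 4 HC arrays, 2 of them by a narrow margin. It was the only one of the 66 genes with this pattern on the higher side, against 0.388% of all genes, and no potassium channel gene lay lower on all 6, against 0.457%. The mean was 0.96 ± 0.432 (SE) higher in FC than in HC, with limma's adjusted p = 1. IMO_FC exceeded HC by 0.75 ± 0.353, or 1.69-fold, with limma's adjusted p = 0.999. The exact two-sided permutation p for IMO_FC against HC was 0.0286, the smallest that 4 arrays against 4 can give, and was not adjusted for the number of genes. Without IMO_FC 1, the highest array, the difference from HC was 0.47.

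The other Kcnj6 probes did not repeat this. The second probe differed from HC by -0.46 in FC and by -0.15 in IMO_FC. The third gave -0.10 and 0.50. The dimmest, detected on 4 of the 10 arrays, gave 1.15 and 0.02. With all 12 arrays the FC values of these 3 probes were -1.14, -0.81 and 0.60. With FC 1 and FC 3 in the fit, the brightest probe's difference between FC and HC became 0.01, because FC 1 read 4.29 and FC 3 read 8.41.

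RefSeq lists a pair of start sites for Kcnj6 in the build GRCm38.p6, and their windows from 250 bases before to 50 bases after the start are printed here because Kcnj6 is the gene whose arrays separated. Both lie on the minus strand of chromosome 16, at chr16:94997647-94997946 (upstream) and chr16:94856641-94856940 (downstream). Capitals mark TGACG, the core of the site bound by CREB, a transcription factor activated by neuronal activity.
Kcnj6 upstream start: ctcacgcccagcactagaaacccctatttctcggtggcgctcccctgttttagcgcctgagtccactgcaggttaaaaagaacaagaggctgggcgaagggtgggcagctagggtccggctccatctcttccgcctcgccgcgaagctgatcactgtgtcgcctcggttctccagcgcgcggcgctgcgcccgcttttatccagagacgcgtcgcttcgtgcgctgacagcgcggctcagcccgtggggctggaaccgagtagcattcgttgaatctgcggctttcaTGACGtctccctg
Kcnj6 downstream start: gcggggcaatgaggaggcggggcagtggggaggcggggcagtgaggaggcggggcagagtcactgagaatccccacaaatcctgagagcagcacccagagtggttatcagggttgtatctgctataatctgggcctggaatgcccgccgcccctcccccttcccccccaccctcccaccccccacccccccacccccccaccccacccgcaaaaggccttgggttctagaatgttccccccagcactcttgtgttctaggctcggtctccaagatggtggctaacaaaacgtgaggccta
The upstream window holds the motif once, 38 bases past the start, and the downstream window holds none. The table held 91 windows for 66 of the 87 genes. TGACG on either strand was in 18.7% of them and in 20.8% of all 32851 windows in the table, so its presence is common. The full palindrome TGACGTCA was in 0% of the members' windows and 1.79% of all. The GC box GGGCGG was in 48.4% against 35.7%, the TATA box TATAAA in 4.4% against 13.6%, and the glucocorticoid response element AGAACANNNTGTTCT in 0% against 0.00913%, each on either strand. No measurement here bears on factor binding.

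Kcnj3 (GIRK1), which needs a partner subunit to reach the membrane, gave a different picture. Its brightest probe read 9.98, 9.90, 10.11 and 9.46 in HC, 8.05 and 9.89 on FC 2 and FC 4, and 9.16, 9.98, 10.01 and 9.78 in IMO_FC. The low FC mean rests on FC 2 alone, and the groups overlap. The difference from HC was -0.90 ± 0.462 in FC (-0.81 with 12 arrays) and -0.13 ± 0.377 in IMO_FC. The second Kcnj3 probe had the opposite sign, at 0.64 ± 0.556 (0.55 with 12 arrays) and 0.90 ± 0.454. Kcnj9 (GIRK3) read 7.505, 6.46, 6.58 and 7.63 in HC, 6.90 and 5.28 in FC, and 7.49, 6.85, 6.70 and 6.42 in IMO_FC. HC and IMO_FC overlapped, with a difference of -0.18 ± 0.414. Kcnj5 (GIRK4), mainly a heart subunit, was detected on none of the 10 arrays.

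**Figure D2:**
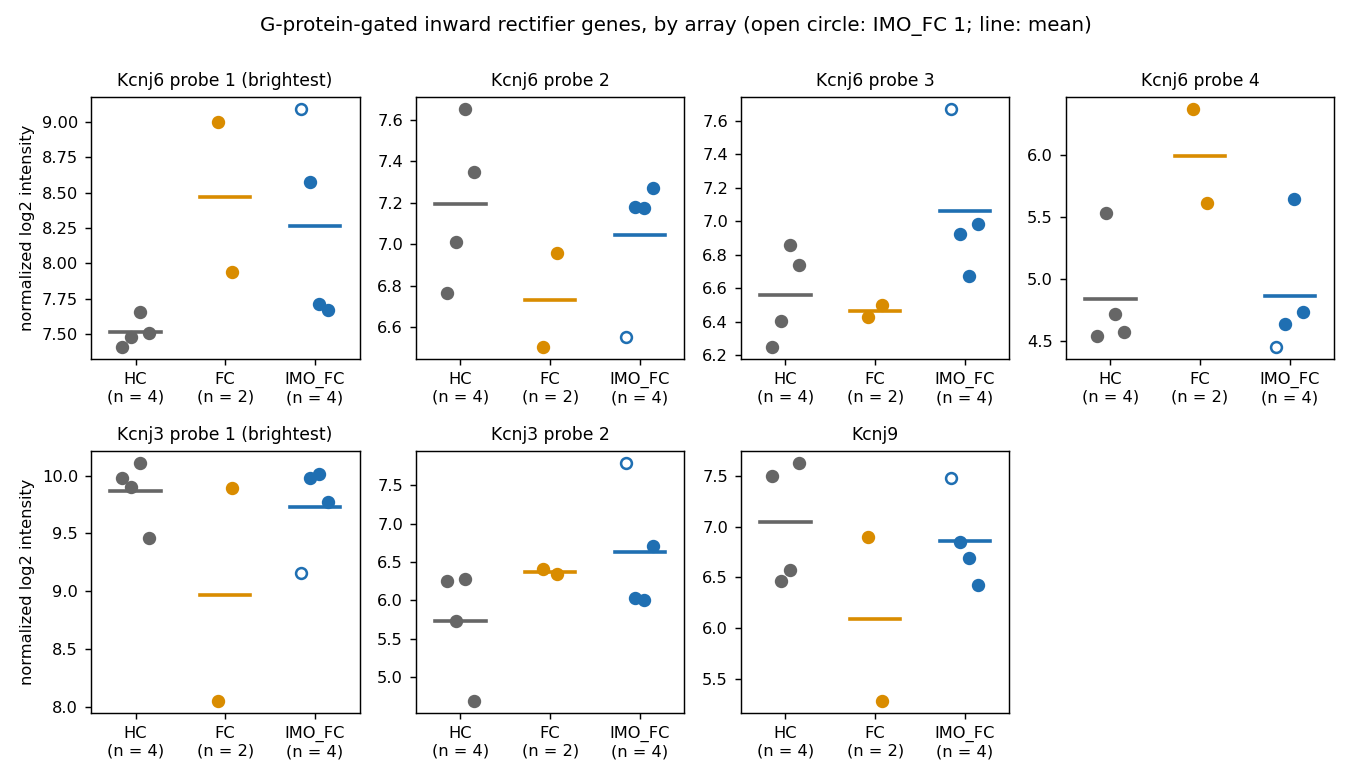
Normalized log2 intensity on each of 10 arrays for the tested probes of Kcnj6, Kcnj3 and Kcnj9 (lines are group means, the open circle is IMO_FC 1, and each panel has its own vertical axis). On the brightest Kcnj6 probe HC lies between 7.40 and 7.65 and all conditioned arrays lie above it, which the other Kcnj6 probes do not show.

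Among the other inward rectifiers, Kcnj12 (Kir2.2), a constitutively open channel of the classical strong type, had the largest difference between FC and HC. It read 7.66, 7.19, 7.12 and 6.88 in HC and 4.43 and 6.46 on FC 2 and FC 4. IMO_FC gave 6.64, 7.85, 6.73 and 6.41. FC lay below every HC array, but its 2 arrays differed by more from each other than FC 4 did from HC. The probe was detected on all HC arrays but on 1 of the 2 FC arrays, so the FC mean includes a reading not above background. The difference between FC and HC as measured was -1.76 ± 0.546, with limma's adjusted p = 1. The exact permutation p was 0.0667, the smallest possible with 2 arrays against 4. The value was -2.77 without FC 4, -0.75 without FC 2 and -1.43 with all 12 arrays.

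Kcnj8 (Kir6.1), the pore of the ATP-sensitive channel of vascular mural cells, was not above background on either FC array. Its HC arrays read 5.28, 4.98, 6.46 and 5.14, FC 4.46 and 4.59, and IMO_FC 4.95, 5.09, 5.72 and 4.90. Each FC array was also set to the higher of its own value and the dimmest signal of a detected probe. The FC mean was then 1.42-fold lower than that of HC, which takes no account of the spread between arrays. The difference as measured was -0.94 ± 0.412, with limma's adjusted p = 1, and -0.36 with all 12 arrays. The log2 of the summed intensity of vascular and mural markers, 8 of 10 tested, was 11.07 to 11.24 in HC, 11.13 to 11.26 in FC and 11.06 to 11.17 in IMO_FC. Kcnj2 (Kir2.1) was 0.67 ± 0.326 higher in FC than in HC without overlap, and 0.14 ± 0.266 higher in IMO_FC. With all 12 arrays the FC difference of Kcnj2 turned to -1.12.

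The remaining inward rectifiers had small differences between IMO_FC and HC. Kcnj4 (Kir2.3) differed by 0.07 ± 0.356, Kcnj11 (Kir6.2, the neuronal ATP-sensitive pore) by 0.22 ± 0.221, Kcnj16 (Kir5.1, a partner of the glial Kir4.1) by 0.24 ± 0.325 and Kcnj14 by -0.27 ± 0.285. Kcnj10 and Kcnj13 were not analysed here. Over the 10 tested inward rectifiers the median was -0.02 in FC and -0.03 in IMO_FC, both against HC.

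Two-pore channels carry the background leak. Kcnk3 (TASK1), an acid-sensitive leak channel, had the largest positive difference between IMO_FC and HC among all members. Its HC arrays read 5.88, 4.43, 4.75 and 5.23, FC read 4.40 and 5.38, and IMO_FC read 7.27, 6.13, 4.90 and 5.77. IMO_FC 1 was the highest, and the groups overlapped. The probe was detected on 2 of the 4 HC arrays, 1 of the 2 FC arrays and all IMO_FC arrays. The HC and FC means thus include readings not above background. The difference was 0.95 ± 0.494 with limma's adjusted p = 0.999 and an exact permutation p of 0.171, and was 0.55 without IMO_FC 1. Its relative Kcnk9 (TASK3) had 3 tested probes, which differed from HC by 0.58, 0.30 and 0.06 in IMO_FC and by 0.57, 0.44 and 0.17 in FC. None passed limma's adjusted test. HC 1 was low on all 3 probes, at 6.13 to 6.21, and without it the brightest probe gave 0.26 in IMO_FC and 0.25 in FC. Its FC value was -0.06 without FC 2. With all 12 arrays the FC values of the 3 probes were -0.56, 0.74 and -0.42.

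Kcnk10 (TREK2), a mechanically and lipid-gated channel, read 7.56 and 6.17 in FC and 4.87, 6.16, 6.14 and 6.04 in IMO_FC. FC 4 lay only narrowly above IMO_FC 2, so that the groups just missed overlapping, and the difference was -1.06 ± 0.486 with limma's adjusted p = 1, and -0.51 with all 12 arrays. The probe was detected on 3 of the 4 IMO_FC arrays. Against HC, IMO_FC differed by -0.48 ± 0.397. Kcnk2 (TREK1) differed by -0.12 ± 0.385 and the bright Kcnk1 (TWIK1) by -0.08 ± 0.259 between IMO_FC and HC. The 9 tested two-pore genes had medians of 0.01 in FC and -0.08 in IMO_FC, both against HC.

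Voltage-gated channels were the largest class, with 28 tested genes. Their median difference from HC was 0.11 in FC and -0.01 in IMO_FC. The brightest probes of some genes had narrow intervals. Kcna6 (Kv1.6) had means of 12.07 ± 0.0969 in HC, 11.91 ± 0.0327 in FC and 11.91 ± 0.104 in IMO_FC (SD, n = 4, 2 and 4). Its 95% interval for IMO_FC against HC was -0.56 to 0.23. Kcnc4 (Kv3.4) had 10.96 ± 0.144, 11.16 ± 0.0357 and 11.02 ± 0.127, and an interval of -0.34 to 0.47. Kcnf1, a silent subunit that alters other Kv channels, had an interval of -0.49 to 0.37. Other probes of these genes had wider intervals, reaching -0.81 to 1.16 for Kcna6, -0.90 to 0.55 for Kcnc4 and -1.13 to 1.5 for Kcnf1.

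The list of delayed rectifiers, which repolarize the spike, had 7 tested genes of the Kv1 and Kv3 types. Among them were Kcna4 and Kcnc4, which inactivate fast and are not delayed rectifiers. Of the 7 genes, 4 were higher in IMO_FC than in HC, with a median of 0.06. Kcna2 (Kv1.2), found along axons, read 8.59, 8.37, 8.89 and 8.57 in HC and 9.68, 9.22, 8.69 and 8.82 in IMO_FC. Only the lower IMO_FC arrays reached into the HC range. Its difference was 0.50 ± 0.271 with limma's adjusted p = 0.999 and an exact permutation p of 0.0857, and 0.31 without IMO_FC 1. Kcna1 differed by -0.04 ± 0.412. The fast-inactivating Kcna4 (Kv1.4) lay lower in IMO_FC by -0.95 ± 0.579, with IMO_FC 1 at 4.84 and the other 3 arrays at 6.92 to 7.91. Without that array the Kcna4 difference was -0.33. The fast Kv3 genes Kcnc1 and Kcnc2 differed by 0.70 ± 0.496 and 0.12 ± 0.322, and the value of Kcnc1 was 0.23 without IMO_FC 1.

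A-type channels of the Kv4 type damp the approach to threshold in dendrites. Kcnd2 (Kv4.2) read 8.79, 8.35, 8.24 and 8.06 in HC, 8.14 and 8.36 in FC, and 6.75, 8.58, 8.27 and 8.08 in IMO_FC. Apart from IMO_FC 1, the arrays of the 3 groups covered the same range. The difference between IMO_FC and HC was -0.44 ± 0.367, and -0.05 without IMO_FC 1. A second Kcnd2 probe, detected on all 10 arrays, had the opposite sign, at 0.32 ± 0.273. It read 7.77, 8.11, 8.17 and 8.275 in IMO_FC and 7.64 to 7.88 in HC. Kcnd1 (Kv4.1) read 6.01, 6.50, 6.03 and 5.98 in HC, 6.29 and 6.17 in FC, and 4.34, 5.20, 5.62 and 6.19 in IMO_FC. Of the 4 IMO_FC arrays, 3 lay below every HC array. The probe was detected on 3 of the 4 IMO_FC arrays, so the IMO_FC mean includes a reading not above background. The difference of Kcnd1 as measured was -0.79 ± 0.351 with limma's adjusted p = 0.999 and an exact permutation p of 0.114. It was -0.47 without IMO_FC 1. A second Kcnd1 probe, detected on 7 of the 10 arrays, gave -0.20 ± 0.45. Kcnd3 (Kv4.3), detected on 5 arrays, differed by 0.24 ± 0.401.

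The M-current and EAG-family channels act slowly or near rest. Kcnq3, a pore of the muscarine-sensitive M-current, differed from HC by 0.58 ± 0.429 in FC (0.23 with 12 arrays) and 0.35 ± 0.35 in IMO_FC. Kcnq5 read 7.30, 7.46, 7.82 and 7.58 in HC, 7.75 and 6.63 in FC, and 4.54, 7.56, 7.13 and 7.51 in IMO_FC. One array made the mean: the difference between IMO_FC and HC was -0.86 ± 0.599 with IMO_FC 1 and -0.14 without it. Kcnh7 (Erg3) differed by 1.02 ± 0.65 in FC without overlap with HC (0.45 with 12 arrays). In IMO_FC it differed by 0.80 ± 0.531, and by 0.25 without IMO_FC 1. A second Kcnh7 probe gave 0.58 ± 0.555 in FC, with overlap (-0.03 with 12 arrays), and -0.44 ± 0.453 in IMO_FC. Kcnh1 and Kcnh3 differed by -0.18 ± 0.587 and -0.32 ± 0.331 and Kcnh2 by 0.04 ± 0.204 between IMO_FC and HC.

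Silent and modulatory subunits do not form channels alone. Kcng3 read 7.86, 7.32, 6.77 and 7.01 in HC, 6.72 and 5.69 in FC, and 4.40, 7.04, 5.85 and 6.74 in IMO_FC. Both FC arrays and 3 of the 4 IMO_FC arrays lay below HC, with FC 2 and IMO_FC 4 below it by a narrow margin. The Kcng3 probe was detected on 3 of the 4 IMO_FC arrays, so the IMO_FC mean includes a reading not above background. Its difference was -1.03 ± 0.651 in FC and -1.23 ± 0.531 in IMO_FC, with limma's adjusted p = 1 and 0.999 and exact permutation p = 0.133 and 0.114. Without IMO_FC 1 the IMO_FC value was -0.69, and with all 12 arrays the FC value turned to 0.68. Kcns1, Kcns2, Kcng2 and Kcnv1 differed between IMO_FC and HC by 0.36 ± 0.269, 0.08 ± 0.459, 0.30 ± 0.284 and -0.39 ± 0.282.

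Among the auxiliary subunits, Kcne4 had the smallest unadjusted p of the members between IMO_FC and HC. It encodes a single-pass membrane protein that inhibits Kv1 channels in expression systems. HC read 6.37, 6.16, 6.33 and 5.10, FC 2 and FC 4 read 5.93 and 5.92, and IMO_FC read 4.63, 5.39, 5.13 and 4.98. All IMO_FC arrays lay below both FC arrays and below 3 of the 4 HC arrays. The probe was detected on all HC arrays but on 3 of the 4 IMO_FC arrays, so the IMO_FC mean includes a reading not above background. The difference between IMO_FC and HC as measured was -0.96 ± 0.307, with limma's adjusted p = 0.999 and an exact permutation p of 0.0857. Against FC it was -0.89 ± 0.376, with limma's adjusted p = 1 and an exact permutation p of 0.0667, and with all 12 arrays -1.23. The promoter window of Kcne4 lies on the plus strand at chr1:78816661-78816960 in GRCm38.p6, from RefSeq, and is shown because this gene had that smallest p. Capitals again mark TGACG, here 50 bases before the start.
Kcne4 start: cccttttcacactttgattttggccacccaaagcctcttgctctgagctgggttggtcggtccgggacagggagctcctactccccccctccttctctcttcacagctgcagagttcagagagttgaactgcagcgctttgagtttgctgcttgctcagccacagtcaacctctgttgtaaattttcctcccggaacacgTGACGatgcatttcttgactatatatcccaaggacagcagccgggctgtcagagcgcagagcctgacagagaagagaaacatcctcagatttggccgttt

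Kcne1l, a related single-pass subunit also named Kcne5, differed between IMO_FC and FC by -0.96 ± 0.397, which turned to 0.35 with all 12 arrays, and between IMO_FC and HC by -0.56 ± 0.324. The FC arrays were 8.22 and 7.29, against 7.05 to 7.67 in HC and 6.21 to 7.36 in IMO_FC. Kcnab1 (Kv-beta-1), a cytoplasmic subunit that speeds inactivation, read 8.61, 7.64, 7.46 and 7.28 in HC and 8.85, 8.23, 8.01 and 8.36 in IMO_FC. Apart from HC 1, every HC array lay below every IMO_FC array, and the difference was 0.62 ± 0.316 with limma's adjusted p = 0.999. Its other 3 probes gave -0.13, 0.23 and 0.49. Kcnab2 and Kcnab3 differed by 0.09 ± 0.205 and -0.36 ± 0.45.

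KChIP proteins bind Kv4 channels and calcium. Kcnip1 read 6.02, 6.82, 7.36 and 6.53 in HC, 7.84 and 7.68 in FC, and 5.29, 7.38, 7.33 and 7.21 in IMO_FC. FC lay above both other groups. The difference from HC was 1.08 ± 0.57 in FC, with limma's adjusted p = 1, and 0.12 ± 0.465 in IMO_FC. Its second probe and the setting with 12 arrays gave FC differences of opposite sign, the latter -0.51. Kcnip2, Kcnip3 and Kcnip4 differed between IMO_FC and HC by 0.02 ± 0.302, -0.15 ± 0.28 and 0.22 ± 0.401.

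Calcium- and sodium-activated channels couple firing to calcium and sodium entry. Kcnma1, the pore of the large-conductance BK channel, read 8.42, 8.09, 9.01 and 8.61 in HC, 9.05 and 9.10 in FC, and 8.77, 8.66, 8.99 and 8.68 in IMO_FC. FC lay narrowly above both other groups. The difference from HC was 0.54 ± 0.282 in FC, with limma's adjusted p = 1, and 0.24 ± 0.23 in IMO_FC, and the FC value was -0.72 with all 12 arrays. Kcnmb2, a beta subunit that inactivates BK channels, read 6.20, 6.62, 5.34 and 7.46 in HC, 4.62 and 5.34 in FC, and 4.40, 6.07, 6.05 and 6.56 in IMO_FC. It was detected on 1 of the 2 FC arrays and 3 of the 4 IMO_FC arrays. Its difference was -1.42 ± 0.644 in FC (-1.53 with 12 arrays) and -0.63 ± 0.526 in IMO_FC, the latter -0.17 without IMO_FC 1. Kcnmb4, the neuronal beta subunit, differed by -0.12 ± 0.307 in IMO_FC on its brighter probe and by -0.86 ± 0.316 on the dimmer, which was detected on 6 arrays.

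SK channels carry a calcium-activated current that follows spikes, and their genes had small differences. Kcnn1, Kcnn2 and Kcnn3 differed between IMO_FC and HC by 0.25 ± 0.39, 0.23 ± 0.291 and -0.20 ± 0.296. The sodium-activated Kcnt1 and Kcnt2 differed by -0.32 ± 0.529 and -0.38 ± 0.355. Over the 9 genes of the class the medians were 0.12 in FC and -0.20 in IMO_FC, both against HC. The SD between arrays of this median was 0.333. The FC value was -0.36 without FC 2, 0.52 without FC 4 and -0.67 with all 12 arrays.

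**Figure D3:**
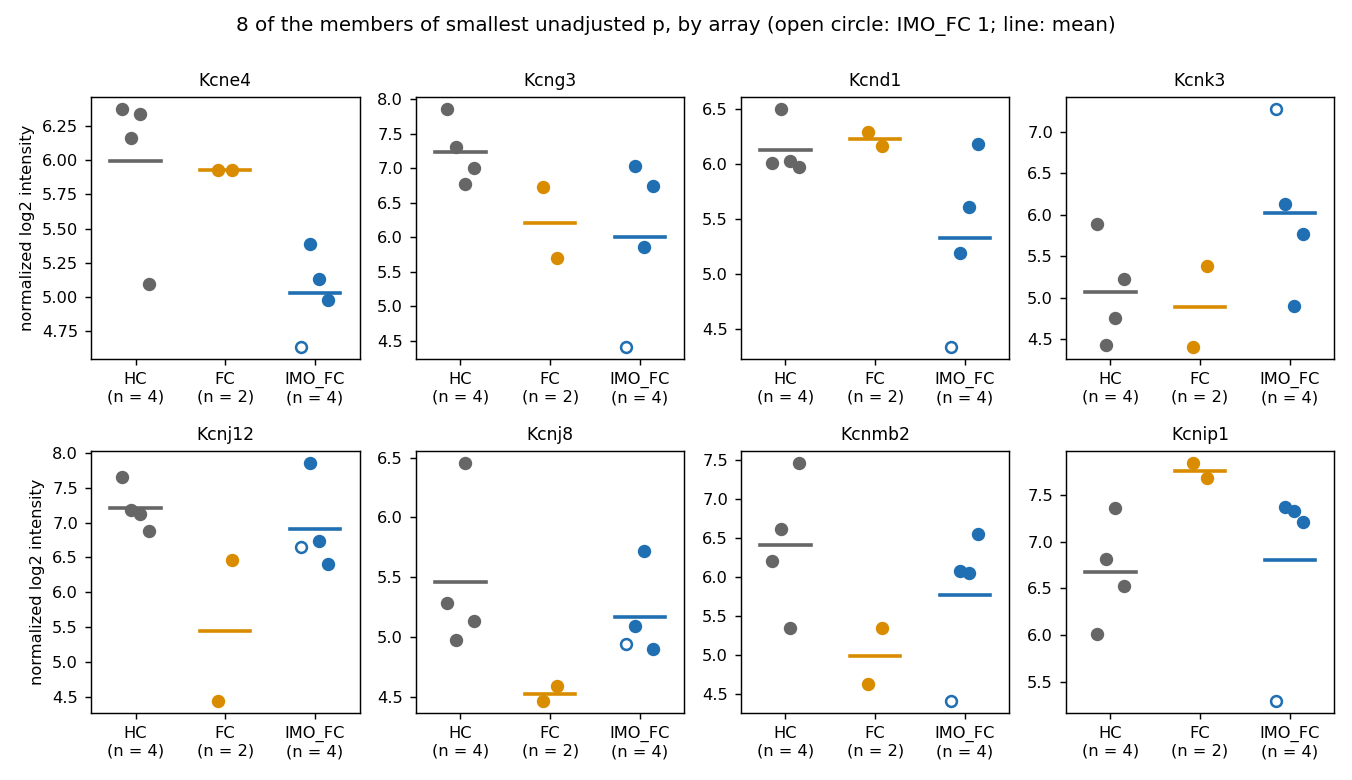
Normalized log2 intensity on each of 10 arrays for 8 of the genes with the smallest unadjusted p in a comparison (lines are group means, the open circle is IMO_FC 1, and each panel has its own vertical axis). IMO_FC 1 is the lowest IMO_FC array for Kcne4, Kcng3, Kcnd1, Kcnmb2 and Kcnip1 and the highest for Kcnk3, and no gene passed the adjusted test.

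Few genes had groups that did not overlap. FC lay wholly above HC for 6 of 66 genes and wholly below for 5, against 5.31% and 6.07% of all genes. Besides Kcnj6, Kcnj2, Kcnma1, Kcnip1 and Kcnh7, the higher ones held Kcnh2, and besides Kcnj12, Kcnj8 and Kcng3 the lower ones were Kcna4 and Kcna6. IMO_FC lay wholly above HC for 1 gene, Kcnj6, and wholly below for 0, against 1.07% and 1.39%. IMO_FC lay above FC for 2 genes, Kcnj8 and Kcnh6, and below for 6, against 4.51% and 4.88%. Those 6 were Kcne4, Kcnip1, Kcnj2, Kcnk10, Kcnk15 and Kcnma1. Kcnh6 was the tightest of them: its IMO_FC arrays read 9.94 to 9.99 and FC 9.67 and 9.78, a difference of 0.23 ± 0.223 with an exact permutation p of 0.0667, and 0.45 with all 12 arrays.

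Adding FC 1 and FC 3 moved the FC values, and also the estimate of spread that all groups share. Between IMO_FC and HC, the share of all probes at an unadjusted p under 0.05 in limma's test fell from 3.17% to 0.4%. With 12 arrays the median FC difference from HC over the members was -0.29, but the median over all genes moved as well, to -0.41. IMO_FC against FC became 0.36, beside 0.38 over all genes. IMO_FC against HC stayed at -0.05. At an unadjusted p under 0.05, 16 of 102 probes stood out between FC and HC against 16.7% of all probes, 1 between IMO_FC and HC against 0.4%, and 10 between IMO_FC and FC against 13.7%. The lowest adjusted p of a potassium channel probe was 0.297, 1 and 0.356 in limma's test of those comparisons. Kcnab3, for example, read 7.96 and 9.96 on FC 2 and FC 4 but 4.60 and 4.45 on FC 1 and FC 3, and its difference from HC went from -0.54 to -2.64. Kcne1 was near background on the other arrays, from 4.53 to 5.64, and read 8.57 and 8.37 on FC 1 and FC 3.

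**Figure D4:**
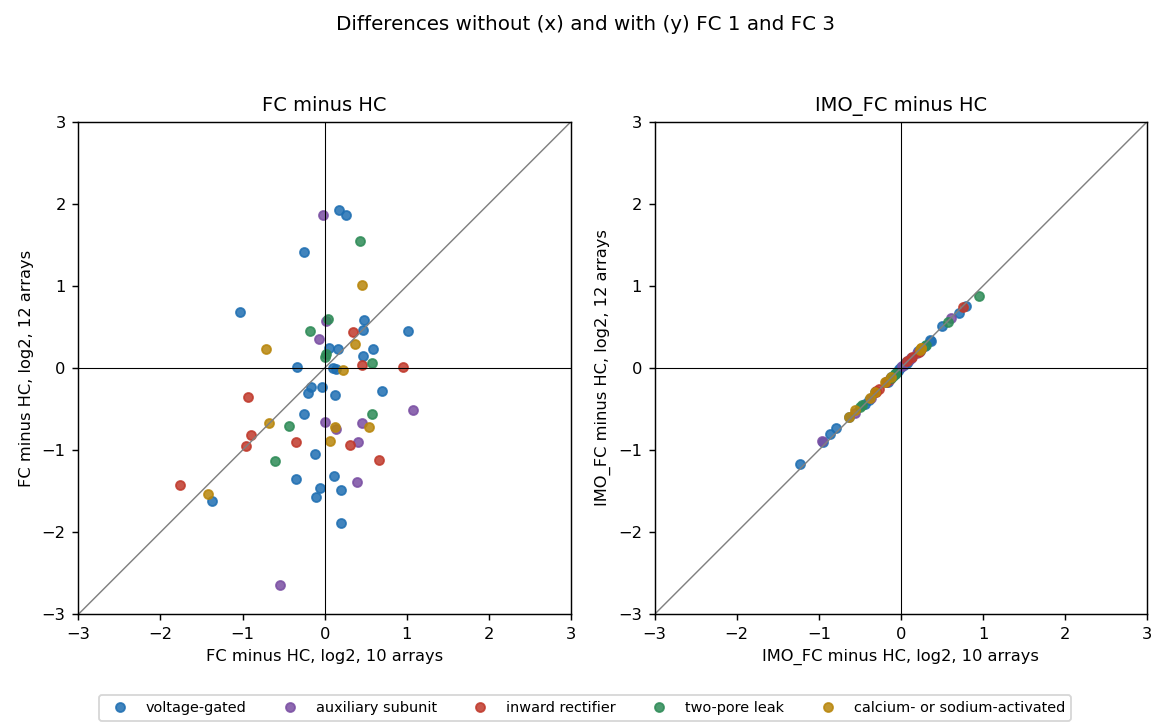
Difference of each of the 66 genes from HC on the log2 scale with 10 arrays (horizontal) and with all 12 (vertical), for FC on the left and IMO_FC on the right, with the line of equality. FC differences scatter widely, from -2.64 to 1.92 with 12 arrays, while the IMO_FC differences lie along the line.

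Probes of one gene often disagreed. Of 24 genes with several tested probes, all probes pointed the same way in 12 for FC against HC, in 10 for IMO_FC against HC and in 9 for IMO_FC against FC. For FC against HC, Kcnv1 gave 0.20 on its brighter probe and 1.37 ± 0.405 on the dimmer, the latter with FC at 7.58 and 6.26 and HC at 5.09 to 6.09. With all 12 arrays these values were -1.89 and 0.16. For IMO_FC against HC, Kcnq5 gave -0.86, -0.77 and 0.21 on its 3 probes, and Kcnc2 gave 0.12, 0.51, -0.26 and 0.54 on its 4. Which transcripts each probe reads was not analysed here.

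**Figure D5:**
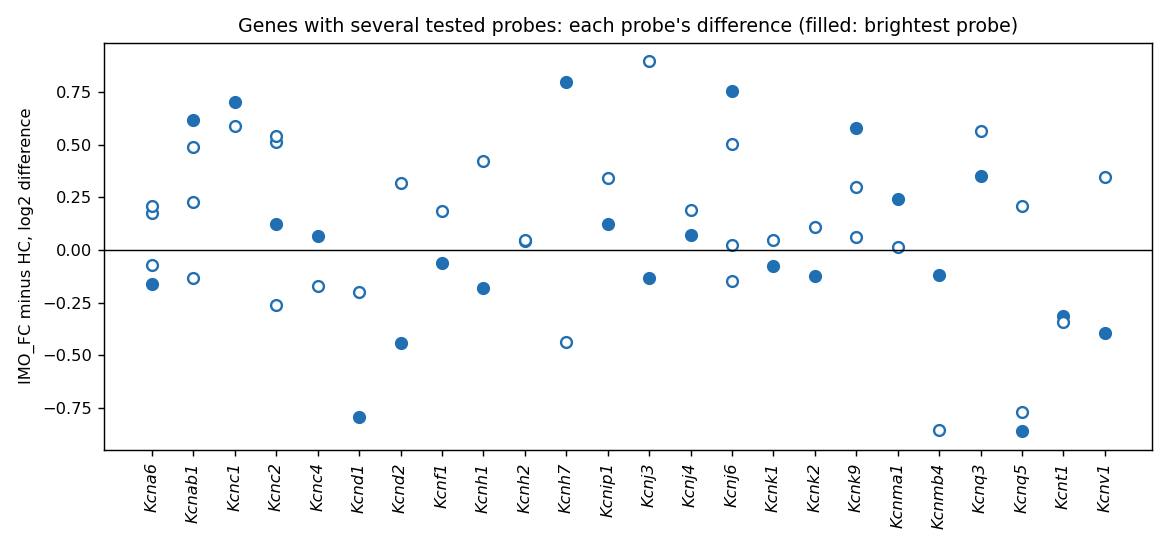
Difference between IMO_FC and HC on the log2 scale for every tested probe of the 24 genes with several tested probes (filled circles are the brightest probes). Probes lie on both sides of 0 for 14 genes, among them Kcnj3, Kcnh7 and Kcnv1, while the probes of Kcnc1, Kcnk9 and Kcnq3 lie on the same side.

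Genes of proteins that work with the channels did not pass the test either. Of 30 listed partners such as Dpp6, Dpp10 and scaffold proteins, 24 were tested and 0 were called in any comparison, with median differences from HC of 0.09 in FC and -0.14 in IMO_FC. A list of 31 genes around GIRK channels held receptors that open them, their G proteins, RGS proteins, which end G-protein signals, and Snx27, which sorts the channels. Of these, 26 were tested and 0 were called, with medians of -0.02 and -0.03. GABA-B receptor genes were the nearest: Gabbr1 was 0.52 ± 0.248 higher in FC than in HC, without overlap, and Gabbr2 was -1.11 ± 0.505 in IMO_FC against FC, each with limma's adjusted p = 1.

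All 14 neuronal markers were tested and differed from HC by medians of 0.05 in FC and -0.06 in IMO_FC. No list of markers particular to the amygdala was used. Of 15 choroid plexus markers, 6 were tested. The log2 of their summed intensity was 11.14 to 12.57 in HC, 11.4 to 11.41 in FC and 11.09 to 11.79 in IMO_FC. One by one, 5 of the 6 had the lower mean in FC and in IMO_FC, with median differences from HC of -0.43 and -0.68. Ttr, the best known of them, ran from 4.52 to 11.61 over the arrays. Its differences from HC, -2.73 in FC and -2.95 in IMO_FC, were the lowest of all 11585 genes tested, those of Aqp1 were -1.43 and -2.22, and those of Kl were 0.124 and 0.305. For 9 of 12 striatal markers the sum was 10.24 to 11.68, 10.65 to 11.81 and 10.84 to 11.85. The part of these neighbouring tissues in the differences of channel genes was not tested. Kcne2, a subunit of choroid plexus channels, was detected on 3 of the 10 arrays and was not tested.

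The 21 genes without a tested probe were detected on 0 to 3 of the 10 arrays. Those detected on none were Kcna7, Kcne3, Kcnh8, Kcnj1, Kcnj5, Kcnk4, Kcnk7, Kcnk16, Kcnk18, Kcnmb4os1, Kcnn4, Kcns3 and Kcnv2. Kcna10, Kcng4, Kcnj15, Kcnk6, Kcnmb1, Kcnq1 and Kcnq1ot1 were detected on 1 to 3. The tested genes not named above, Kcna3, Kcna5, Kcng1, Kcnh4, Kcnh5, Kcnk5, Kcnk12, Kcnk13 and Kcnu1, differed between IMO_FC and HC by -0.64 for Kcna3 to 0.31 for Kcnk5, and none passed the test.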

How the data were processed

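Total RNA was purified with a Qiagen RNeasy kit and labelled with biotin through Ambion MessageAmp, per the labels' protocols, for 12 Illumina mouse arrays. The authors deposited, per the file headers, an unnormalized signal intensity and a detection p-value for each of 45281 probes on each array. They also deposited a normalized intensity table, whose method is not given in the sources used here and which served as an alternative. The probe annotation gave 34885 probes 1 symbol, 18 several and 10378 none. Signals were background corrected and quantile normalized with limma's neqc (R 4.3.3, limma 3.58.1, offset 16), and log2 values were fitted with a mean per group over 10 arrays, leaving 7 residual degrees of freedom. P-values were adjusted over all 23260 tested probes by Benjamini-Hochberg. Exact permutation tests were two-sided over 70 arrangements (4 against 4) or 15 (2 against 4). The procedure was tested on simulated data.

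Described genes are those on lists by role and up to 4 per direction and comparison with the smallest p; Kcnh4, Kcnh6, Kcnk15 and the other tested genes outside that rule were named after their values were seen. The members and lists were chosen with earlier results of these data known. The number of arrays limits the precision. Alternatives were other arrays, background corrections, normalizations, filters, priors, weights, probes and thresholds, the replicate block and each array left out.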

Additional observations from a re-analysis of the deposited data

Results flagged for a closer look

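Among 132 groups examined (66 genes in HC and in IMO_FC), 11 had an array far from the other 3. The rule's nominal rate for normally distributed values is about 1 in 20. The share over all genes was not computed, so the count may not be particular to potassium channel genes. The gap to the nearest array is given as a share of the group's range. In IMO_FC, 4 of the 6 such groups were set apart by IMO_FC 1: Kcnc1 at 7.92 against 5.82 to 6.03 (0.9), Kcnip1 at 5.29 against 7.21 to 7.38 (0.92), Kcnk10 at 4.87 against 6.04 to 6.16 (0.911) and Kcnq5 at 4.54 against 7.13 to 7.56 (0.858). This is the array of the 10 with the fewest probes detected, and the part of that in these values was not tested. IMO_FC 2 was set apart for Kcnk2, at 8.15 against 7.56 to 7.65 (0.849), and for Kcnh6, at 9.99 against 9.94 to 9.95 (0.843). In HC the groups were Kcnd1 with HC 2 at 6.50 (0.909), Kcne4 with HC 4 at 5.10 (0.833) and Kcnh4 with HC 1 at 4.999 (0.922). HC 1 was also apart for Kcnip3, at 7.29 (0.83), and for Kcnk9, at 6.16 (0.833).

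Probes left untested for low detection gave 4 that no HC array detected and at least 2 conditioned arrays did. A Kcng4 probe was detected on 3 IMO_FC arrays and a second Kcnip4 probe on 2 IMO_FC arrays. Kcna10 and Kcnj15 probes were each detected on 2 arrays, 1 of FC and 1 of IMO_FC. The highest deposited signals were 82.58, 88.07, 74.18 and 78.09. There were more conditioned arrays than HC arrays, which favours such a pattern. Neither the reverse pattern nor the share over all untested probes was counted, so no effect of conditioning is read from these probes.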

How the results depend on the processing

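Under 24 other settings, 12 arrays and 9 arrays included, 0 potassium channel genes were called in any comparison, and the lowest adjusted p of a named gene was 0.137 in limma's test, for Kcnj12 in FC against HC without FC 4, where FC 2 is assumed to vary like the other groups. The median over the members moved by more than its spread between arrays in these cases. With all 12 arrays, FC against HC gave -0.291 and IMO_FC against FC gave 0.362. With median centring in place of quantile normalization it was -0.132 for IMO_FC against HC. Without FC 1, FC 3 and IMO_FC 1, a setting chosen after seeing the data, IMO_FC against FC was -0.0348. Leaving out each array in turn gave -0.118 to 0.00117 for IMO_FC against FC, the highest without IMO_FC 3, and -0.0283 without IMO_FC 1. The cause was not tested. Of 159 differences (53 genes, 3 comparisons), 58 kept their sign in all settings, and 44 changed sign with 12 arrays. The separation of Kcnj6 between IMO_FC and HC was lost with median centring and with the mean of its probes, and its difference ranged down to 0.282 with that mean.

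With the replicate number as a block the median was 0.0998 for FC and -0.0494 for IMO_FC, each against HC, and -0.0859 between IMO_FC and FC, and the block changed no call. Over 8 pairs of same-numbered arrays, the r of their deviations ran from -0.142 to 0.186, with 2 above 0.1. The numbers were not taken to pair the samples. With 2 FC arrays in the fit, their deviations mirror each other, so their r values are not separate readings. In median unnormalized signal, HC 1, FC 1 and IMO_FC 1 were the lowest, at 43.45, 35.58 and 45.71, against 57.61 to 77.82 elsewhere. A level shared by all probes does not enter r. Whether same-numbered arrays were processed together was not tested. Slide as a block was not run, since the files name no slide.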
